A study of Mus musculus with 8 samples.

Results

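The genes described here are 9 genes of the B cell lineage, measured in early T cell precursors. They were chosen by name: every probe set (a group of short probes that reports on a transcript) whose gene symbol on the array was Spib, Pou2af1, Vpreb1, Igll1, Pax5, Ebf1, Cd79a, Cd79b or Blnk. That gave 15 of the 45101 probe sets and 9 of the 18193 genes tested. In addition, 1 probe set matched both Vpreb1 and Vpreb2 and was kept apart.

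There were 8 Affymetrix mouse arrays, 2 for each of 4 groups, and 1 limma model was fitted to them all. DN3 cells, gated as CD25-positive cells that lack CD44 and lineage markers, came from wild-type (WT) mice or from IkL/L mice, which the series calls Ikaros-deficient. IkL is known as a hypomorphic allele of Ikzf1, the gene for the zinc finger factor Ikaros. Lineage-negative thymocytes of both genotypes were grown on OP9 DL1 stromal cells, which display a Delta-like Notch ligand, and given the gamma-secretase inhibitor MRK-003 (GSI; 5 mM as labelled) or its vehicle DMSO for 16 h before the sort. The labels do not give the sex, the age or the number of mice, or say that the 2 replicates of a group were separate animals or cultures, so the p-values rest on a spread between arrays that may be technical.

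B and T cells arise from shared progenitors. In the B lineage, the factors EBF1 and PAX5 switch on genes of the pre-B cell receptor: its signalling chains CD79A and CD79B, its surrogate light chain made of VPREB and lambda5 (encoded by Igll1), and the adaptor BLNK. In T cell precursors, Notch signals hold this fate back. Gamma-secretase frees the intracellular part of Notch, and Ikaros is known to bind DNA motifs that resemble those of the Notch partner RBPJ.

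The 9 genes did not move as a block. With GSI, Spib, Vpreb1 and Cd79b rose and Pou2af1 fell in the average over both genotypes, while Pax5, Ebf1, Cd79a and Blnk passed in no comparison. In IkL/L, Spib was 5.34-fold lower than in WT under DMSO, and under GSI its levels in the genotypes overlapped. A gene passed at an adjusted p below 0.05 (limma, Benjamini-Hochberg over all 18193 genes, two-sided), and differences are given as log2 values with their standard error (SE). With so few arrays, their number limits how precise each value is.

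As background to these patterns, the stretch before the transcript start was read for the genes that differed between groups. RefSeq (GRCm38.p6) held such a sequence for 8 of the 9 genes; Cd79b had none. The 250 bases upstream of the start are printed 5′ to 3′ on the gene's strand for the 4 genes with an entry that passed in any comparison. Capitals mark matches, on either strand, to TGGGAA (a core shared by RBPJ and Ikaros sites), CCCNNGGG (the EBF core), ATGCAAAT (the octamer bound by POU factors, with which the Pou2af1 product works) or CAGGTG (an E protein site).
Spib, chr7:44532072-44532321, minus strand: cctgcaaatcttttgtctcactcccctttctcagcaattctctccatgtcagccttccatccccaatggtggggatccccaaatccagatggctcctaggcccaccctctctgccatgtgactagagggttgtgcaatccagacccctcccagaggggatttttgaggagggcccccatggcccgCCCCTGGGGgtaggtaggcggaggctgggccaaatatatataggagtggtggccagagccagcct
Vpreb1, chr16:16869256-16869505, minus strand: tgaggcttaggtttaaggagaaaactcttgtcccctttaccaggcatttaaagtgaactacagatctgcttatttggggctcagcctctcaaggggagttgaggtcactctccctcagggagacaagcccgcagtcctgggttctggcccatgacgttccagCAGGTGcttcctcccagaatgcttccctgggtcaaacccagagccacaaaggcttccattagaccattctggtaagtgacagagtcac
Igll1, chr16:16863986-16864235, minus strand: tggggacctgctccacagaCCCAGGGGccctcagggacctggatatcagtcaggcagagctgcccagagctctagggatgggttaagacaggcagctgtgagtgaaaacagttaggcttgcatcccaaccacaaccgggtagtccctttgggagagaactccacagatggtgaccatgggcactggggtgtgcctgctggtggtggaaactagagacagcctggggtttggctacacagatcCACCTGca
Pou2af1, chr9:51213440-51213689, plus strand: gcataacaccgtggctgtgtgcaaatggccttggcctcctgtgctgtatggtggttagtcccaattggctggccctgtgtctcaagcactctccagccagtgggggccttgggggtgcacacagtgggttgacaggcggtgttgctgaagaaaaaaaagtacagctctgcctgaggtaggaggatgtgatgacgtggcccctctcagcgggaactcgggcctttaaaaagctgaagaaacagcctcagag
The Spib stretch held 2 overlapping matches to CCCNNGGG, which begin 65 and 64 bases before the start. Vpreb1 held 1 match to CAGGTG, and Igll1 held 1 match each to CCCNNGGG and CAGGTG. Pou2af1 held no match to any of the 4. No TGGGAA lay in these 4 windows, and among the 8 genes it lay only before 1 of 2 Ebf1 starts. Blnk had an ATGCAAAT match on the minus strand of its stretch and a CAGGTG match, and Cd79a had a CAGGTG match. Among all 32851 such stretches of the same length, 21.6% held TGGGAA, 11.8% CCCNNGGG, 1.60% ATGCAAAT and 17.2% CAGGTG. A match describes the letters of the window and shows no binding.

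The targeted gene and the sorted cell type were checked first. Ikzf1 was at log2 levels of 11.95 and 12.17 (DMSO) and 12.18 and 11.95 (GSI) on WT arrays and 11.14 and 11.19 (DMSO) and 11.75 and 11.52 (GSI) on IkL/L arrays. The position of its probe set in the gene was not determined, so this is no full check of the allele. The Notch target Dtx1 fell with GSI in both genotypes (-4.20 ± 0.20 in WT and -4.55 ± 0.20 in IkL/L; limma, adjusted p = 0.00036 and 9.5e-05). Il2ra, which encodes the CD25 of the sort, also fell, by 2.37 and 2.18 on the log2 scale, but stayed at 9.42 or more on every array. Ptcra, the pre-T cell receptor alpha chain gene, fell as well (-1.64 ± 0.15 in WT and -2.33 ± 0.15 in IkL/L), and under GSI its IkL/L minus WT difference was -1.06 ± 0.15 (limma, adjusted p = 0.015). Of 5 measured markers that DN3 cells should lack, Cd4 rose with GSI in IkL/L (1.22 ± 0.25, limma, adjusted p = 0.013), from 6.23 and 6.57 to 7.88 and 7.36. That was 1 of 5 higher and none lower, beside 7.7% and 9.09% of all genes. The other 4 did not pass; their list's median difference there was 0.79, beside -0.05 over all genes, and Cd8a was at 8.43 on IkL/L GSI replicate 1 and at 6.55 or less elsewhere. The part of these markers in the results on B lineage genes was not tested. Array medians lay between 5.25 and 5.33, and the values of 2 replicates correlated across probe sets with r from 0.975 to 0.993. GAPDH control probe sets at the 3' end exceeded those at the 5' end, which reads RNA length, by a log2 value of 1.71 to 2.47 with DMSO and 2.20 to 3.09 with GSI. In bulk samples, fewer cells of a type and less RNA per cell cannot be told apart.

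Spib encodes Spi-B, an ETS family transcription factor of B cells and plasmacytoid dendritic cells. It lies at chr7:44525995-44532087. Its log2 levels were 8.56 and 8.52 (DMSO) and 9.43 and 9.37 (GSI) on WT arrays and 6.05 and 6.19 (DMSO) and 8.79 and 9.39 (GSI) on IkL/L arrays. The IkL/L DMSO arrays stood apart below all others, and the GSI arrays of both genotypes overlapped. Under DMSO the IkL/L minus WT difference of Spib was -2.42 ± 0.23 (limma, adjusted p = 0.00196). With GSI it rose in IkL/L by 2.97 ± 0.23 (7.82-fold; adjusted p = 0.00051). Both calls held in each of 8 fits that left out 1 array.

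In WT, the Spib difference with GSI was 0.86 ± 0.23 and did not pass (limma, adjusted p = 0.065), although both GSI arrays lay above both DMSO arrays; it passed in 4 of 19 alternative fits. With GSI, the genotypes differed by -0.31 (95% interval -0.83 to 0.21; limma, adjusted p = 0.72). The response in IkL/L exceeded that in WT by 2.11 ± 0.32, which did not pass as an interaction over all genes (adjusted p = 0.155; unadjusted p = 0.00016). That difference lay between 1.80 and 2.41 in the 18 alternative fits. It passed in 2 of them, chosen after the data were seen, with the GAPDH difference (adjusted p = 0.025) or the stromal marker level (adjusted p = 0.022) of each array as a covariate.

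Cd79b encodes Ig-beta, a signalling chain of the B cell receptor, and lies at chr11:106311341-106314562. Its levels were 8.66 and 8.27 (DMSO) and 9.78 and 9.11 (GSI) on WT arrays and 7.27 and 7.05 (DMSO) and 8.42 and 9.04 (GSI) on IkL/L arrays. As with Spib, the IkL/L DMSO arrays were the lowest, but WT DMSO and IkL/L GSI overlapped. Cd79b rose with GSI in IkL/L by 1.57 ± 0.30 (2.97-fold; limma, adjusted p = 0.0098). That call was lost without IkL/L DMSO replicate 1 (adjusted p = 0.060), IkL/L DMSO replicate 2 (0.075) or IkL/L GSI replicate 2 (0.088). In WT its difference was 0.98 ± 0.30 (limma, adjusted p = 0.10) and did not pass. In the fits with a covariate it passed, at 1.49 for the GAPDH difference (limma, adjusted p = 0.010) and at 0.90 for the stromal level (0.033). The GAPDH difference was itself higher on the GSI arrays of each genotype, so that fit cannot fully part it from the treatment. In the average of both genotypes Cd79b rose by 1.28 ± 0.21 (limma, adjusted p = 0.0037).

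The genotype difference of Cd79b under DMSO was -1.31 ± 0.30 and did not pass (limma, adjusted p = 0.090). It passed without WT GSI replicate 1 (0.043) or WT GSI replicate 2 (0.043), arrays that enter this comparison only through the shared estimate of spread. It also passed with the GAPDH difference (0.015) or the stromal level (0.012) as a covariate. Under GSI it was -0.72 ± 0.30 (adjusted p = 0.44). The partner gene Cd79a, encoding Ig-alpha, stayed between 3.96 and 4.45 on the 8 arrays, and none of its 6 comparisons passed.

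Pou2af1 encodes OCA-B, a coactivator that joins the POU factors OCT1 and OCT2 on octamer sites, and lies at chr9:51213690-51240079. Its levels were 7.11 and 6.97 (DMSO) and 4.95 and 4.99 (GSI) on WT arrays and 6.96 and 7.11 (DMSO) and 5.05 and 4.74 (GSI) on IkL/L arrays. All 4 GSI arrays lay below all 4 DMSO arrays, and the genotypes overlapped within DMSO. Pou2af1 fell with GSI by 2.07 ± 0.17 on the log2 scale in WT (4.20-fold; limma, adjusted p = 0.0032). In IkL/L it fell by 2.14 ± 0.17 (4.40-fold; adjusted p = 0.00054). Both calls held in each of the 8 fits without 1 array; in a fit to the 4 WT arrays alone, the adjusted p in WT was 0.064. The genotypes differed by -0.01 under DMSO (95% interval -0.39 to 0.38, limma, adjusted p = 0.996). Under GSI they differed by -0.07 (-0.46 to 0.31, adjusted p = 0.93), and both signs turned under other settings. The GSI levels lay below the array medians of 5.25 to 5.33, so a genotype difference there could hardly show.

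**Figure D1:**
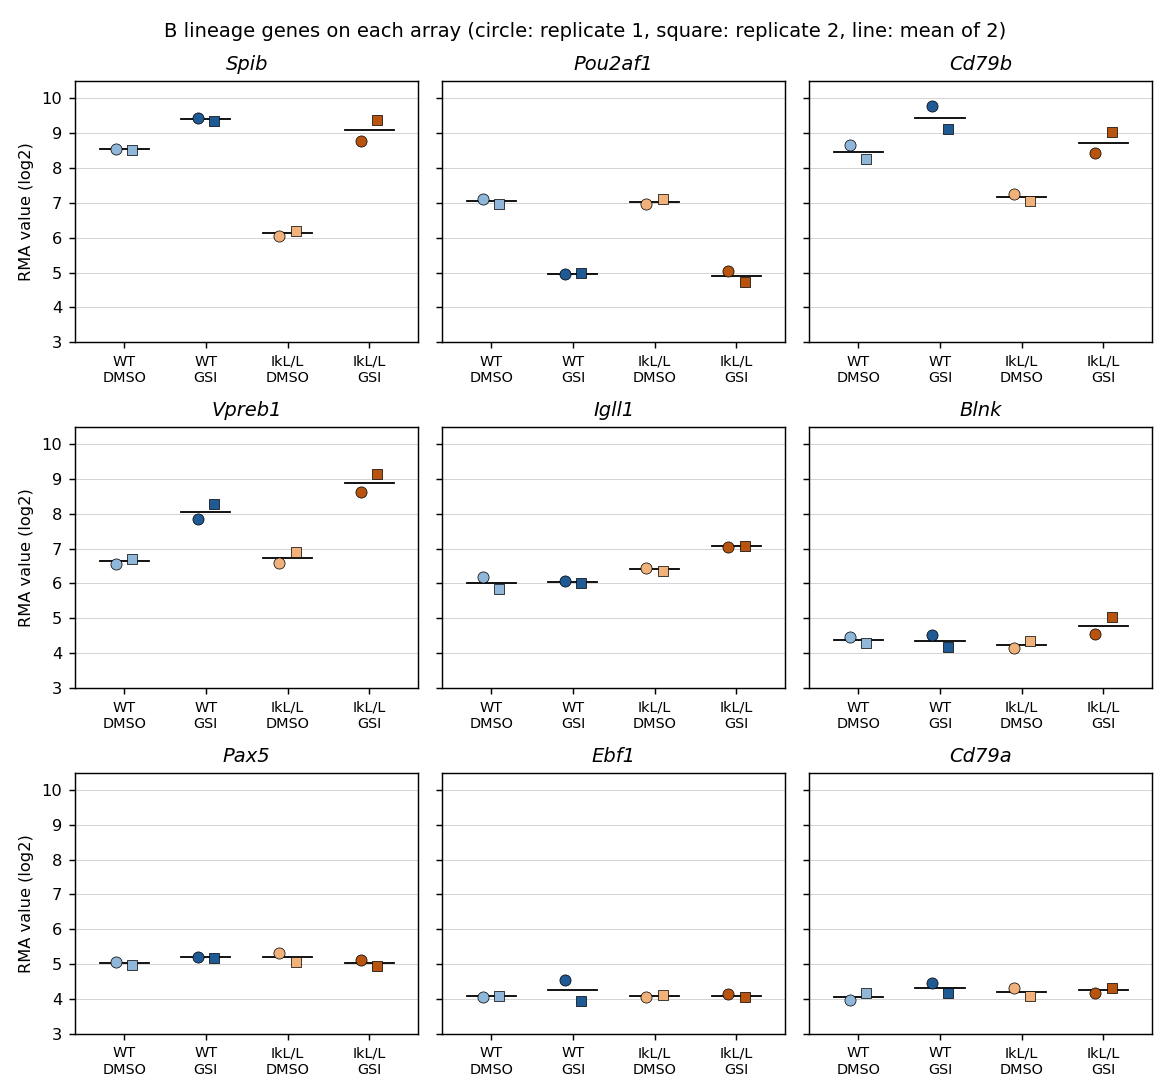
Deposited log2 values of the probe set used for each of the 9 genes (vertical axis, RMA value) in the 4 groups (horizontal axis); the circle is replicate 1, the square replicate 2 and the line their mean. Spib and Cd79b are lowest on the IkL/L DMSO arrays, Pou2af1 is near 7 on DMSO and near 5 on GSI arrays, Vpreb1 is higher on GSI arrays, and Pax5, Ebf1 and Cd79a stay at or below 5.33.

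The surrogate light chain genes lie close together, Igll1 at chr16:16860671-16863985 and Vpreb1 at chr16:16868401-16869255. Vpreb1 was at log2 levels of 6.57 and 6.69 (DMSO) and 7.84 and 8.29 (GSI) on WT arrays and 6.58 and 6.90 (DMSO) and 8.64 and 9.16 (GSI) on IkL/L arrays. Each GSI array was above each DMSO array, with IkL/L GSI above WT GSI. Vpreb1 rose in IkL/L by 2.16 ± 0.25 (4.47-fold; limma, adjusted p = 0.0015), in each of the 8 fits without 1 array. In WT it rose by 1.43 ± 0.25 (2.70-fold; adjusted p = 0.020). The WT call was lost without WT DMSO replicate 1 (adjusted p = 0.10), WT DMSO replicate 2 (0.079) or WT GSI replicate 2 (0.058).

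The IkL/L minus WT difference of Vpreb1 was 0.11 ± 0.25 under DMSO (limma, adjusted p = 0.96) and 0.83 ± 0.25 under GSI (adjusted p = 0.23). Its sign under DMSO turned in 2 of the alternative fits. The difference between the genotypes' responses to GSI was 0.73 (95% interval -0.09 to 1.54; adjusted p = 0.86). The probe set shared by Vpreb1 and its near copy Vpreb2 was at 4.71 and 4.94 (DMSO) and 5.13 and 5.27 (GSI) on WT arrays and 4.62 and 4.70 (DMSO) and 5.24 and 5.39 (GSI) on IkL/L arrays. It showed the same order of treatments. In a fit to all 45037 probe sets that are not controls, it rose with GSI by 0.65 ± 0.15 in IkL/L (limma, adjusted p = 0.036) and was at 0.38 ± 0.15 in WT (adjusted p = 0.28). Signals of the 2 genes cannot be told apart on that probe set.

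Igll1 was measured by 2 probe sets that disagreed. The dimmer one lay near or below the array medians, where a difference could hardly show. The brighter one, whose suffix _x_at marks probes that may bind other transcripts too, was at 6.18 and 5.83 (DMSO) and 6.07 and 6.01 (GSI) on WT arrays and 6.46 and 6.37 (DMSO) and 7.06 and 7.08 (GSI) on IkL/L arrays. There the IkL/L GSI arrays stood above the rest. By this probe set Igll1 rose with GSI in IkL/L by 0.65 ± 0.17 (1.57-fold; limma, adjusted p = 0.035), and under GSI it exceeded the WT level by 1.03 ± 0.17 (2.04-fold; adjusted p = 0.028). In WT its difference with GSI was 0.04 ± 0.17 (adjusted p = 0.94), with a sign that turned without WT DMSO replicate 2.

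On the other Igll1 probe set the values were 4.58 and 5.00 (DMSO) and 5.34 and 4.75 (GSI) on WT arrays and 4.55 and 4.76 (DMSO) and 5.16 and 4.68 (GSI) on IkL/L arrays, and all 4 groups overlapped. Its genotype difference under GSI was -0.12 ± 0.26, opposite in sign to that of the brighter probe set (limma over all the probe sets, adjusted p = 0.94). With the mean of both probe sets, the response in IkL/L was 0.46 (adjusted p = 0.082) and the genotype difference under GSI 0.45 (adjusted p = 0.30). Leaving out each IkL/L array in turn also ended both Igll1 calls, with adjusted p of 0.13 to 0.18 for the response in IkL/L and of 0.079 to 0.18 for the genotype difference. The latter was lost without either WT GSI array too (0.075 and 0.083). After quantile normalization once more, neither passed (0.154 and 0.091).

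The factors that define the B lineage were dim. The 9 probe sets of Pax5, Ebf1, Cd79a and Blnk lay between 3.12 and 5.33 on all arrays, near or below the array medians. The deposited values carry no detection calls, so whether these genes were above background is not settled. None of the 24 comparisons of these 4 genes passed (limma; lowest adjusted p = 0.097). That lowest value belonged to Blnk, the adaptor that links the pre-B cell receptor to phospholipase C gamma, with GSI in IkL/L. Blnk was at 4.14 and 4.34 in IkL/L DMSO and at 4.54 and 5.02 in IkL/L GSI, a difference of 0.54 (95% interval 0.10 to 0.98). The other probe sets of Pax5 and Ebf1 did not pass either: Ebf1 had 5 and Pax5 had 2.

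Set against all genes, 1 of the 9 rose with GSI in WT (Vpreb1; 2.31% of all genes rose) and 1 fell (Pou2af1; 4.16% fell), together 2 of 9 beside 6.47%. In IkL/L, 4 of the 9 rose (Spib, Vpreb1, Cd79b and Igll1), where 7.7% of all genes rose, and 1 fell, where 9.09% fell, together 5 of 9 beside 16.8%. The median log2 difference over the 9 genes was 0.54 in IkL/L and 0.17 in WT, beside -0.05 and 0.04 over all genes. In the average of both genotypes 3 rose and 1 fell, against 10.8% and 12.5% of all genes, or 23.3% in either direction. Under DMSO 1 of 9 was lower in IkL/L (Spib) and none higher, beside 1.03% and 0.709% of all genes, or 1.74% in all. Under GSI 1 was higher (Igll1) and none lower, beside 0.945% and 0.517% of all genes, or 1.46% in all. The medians of the 9 genotype differences were 0.02 under DMSO and -0.07 under GSI, beside 0.03 and -0.04 over all genes. None of the 9 passed the test of a difference between the responses, where 0.044% of all genes did and where Spib and Igll1 had an unadjusted p below 0.05. The 2 responses to GSI share no arrays with each other, whereas each shares arrays with the genotype comparisons.

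**Figure D2:**
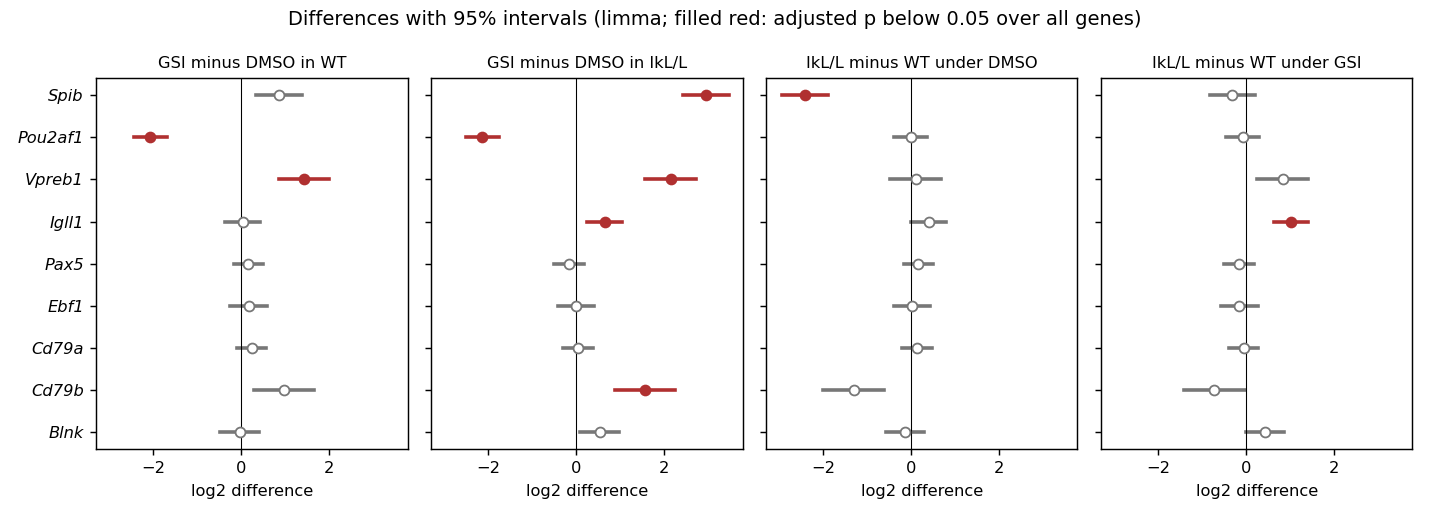
Log2 differences of the 9 genes (horizontal axis) with 95% intervals from limma in 4 comparisons; filled red points passed at an adjusted p below 0.05 over all genes, open grey points did not. The Pou2af1 difference is near -2 with GSI in both genotypes and near 0 between genotypes, and the Spib difference is -2.42 between genotypes under DMSO and -0.31 under GSI.

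Single arrays decided part of these counts. In WT, 1 gene passed in place of 2 without WT DMSO replicate 1, WT DMSO replicate 2 or WT GSI replicate 2, and none with only the 4 WT arrays. In IkL/L, 3 passed in place of 5 without IkL/L DMSO replicate 1, IkL/L DMSO replicate 2 or IkL/L GSI replicate 2. In the average, 4 passed without each of the 8 arrays in turn. With the GAPDH difference as a covariate, chosen after the data were seen, 5 genes passed in IkL/L and 3 in WT. With the stromal level it was 5 and 4. Of all 18193 genes, these fits called 3197 and 2276 (GAPDH) and 5095 and 3098 (stromal), in place of 3055 and 1177. The fit to the 4 WT arrays alone called 1.

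The rest of the B cell programme was followed in a list of 50 further genes, of which 40 were measured. The list is not confined to B cells. Rag1 and Rag2 were also counted among the markers of DN3 cells, and Rag1 was at 11.71 or more on every array. Other genes of the list, such as Ms4a1 (3.94 to 4.49) and Cr2 (3.22 to 3.42), were dim on every array. With GSI in IkL/L 10 rose (Rag1 among them), 1 fell and 29 did not pass (limma, adjusted p below 0.05), beside 7.7% and 9.09% of all genes. In WT none rose and 1 fell, beside 2.31% and 4.16% of all genes. At an unadjusted p below 0.05 (limma), 10 were higher and 1 lower there, a threshold at which all genes were not counted. The WT count of genes that rose was 2 after quantile normalization once more or with the GAPDH covariate, and 6 with the stromal covariate. In these fits 1162, 2276 and 3098 of all genes passed in either direction, in place of 1177. The difference between the genotypes' responses passed for none of the 40 (4 higher and 1 lower unadjusted). Among those that passed, the largest increases in IkL/L were those of Bach2, a repressor that acts in B and T cells (1.73 ± 0.44), the exchange factor gene Ralgps2 (1.35 ± 0.25) and Jchain, the joining chain of IgM and IgA (1.35 ± 0.26). Syk, the kinase that binds phosphorylated CD79 chains (0.96 ± 0.23), and Plcg2, the phospholipase downstream of BLNK (adjusted p = 0.032), were named after their values were seen and also rose. Ikzf3, which encodes the Ikaros relative Aiolos, fell in WT (-1.45 ± 0.33; limma, adjusted p = 0.040) and in IkL/L (-1.28 ± 0.33; adjusted p = 0.032). No gene of the list fell in WT without WT DMSO replicate 1 or 2, WT GSI replicate 2 or IkL/L DMSO replicate 1 or 2, nor in IkL/L without IkL/L DMSO replicate 1 or 2 or IkL/L GSI replicate 2. The count of genes that rose in IkL/L was 2 without IkL/L DMSO replicate 1, 4 without IkL/L DMSO replicate 2 and 5 without IkL/L GSI replicate 2.

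Among transcription factors of the list, Irf8 rose with GSI in IkL/L by 1.19 ± 0.18 (limma, adjusted p = 0.0036) and was at -0.04 ± 0.18 in WT; it was named after its values were seen. Spi1, Bcl11a, Irf4 and Tcf3 gave no call with GSI in either genotype. Their log2 differences in WT and IkL/L were 0.14 and -0.00 for Spi1, encoding PU.1, and 0.14 and -0.09 for Bcl11a. They were -0.40 and -0.27 for Irf4 and -0.49 and -0.35 for Tcf3, which encodes the E2A proteins. The difference for Ighm, the IgM heavy chain gene that is also transcribed in sterile form in early T cells, was 0.18 in WT and -0.79 in IkL/L. Rag1, shared by B and T precursors for receptor gene rearrangement, rose in IkL/L (0.88 ± 0.20; limma, adjusted p = 0.020) and was at -0.23 ± 0.20 in WT.

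**Figure D3:**
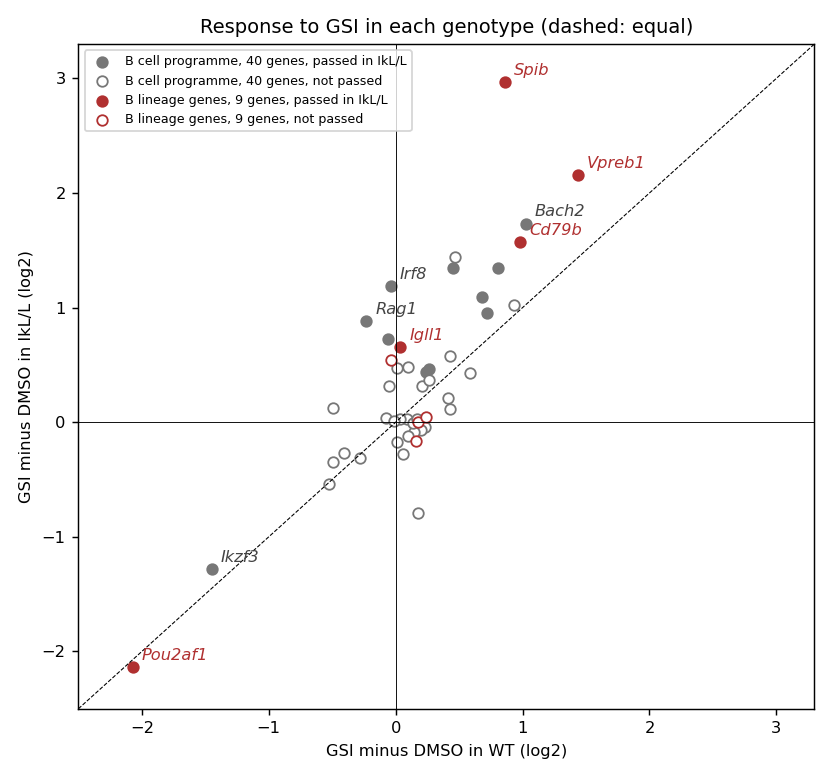
Log2 difference of GSI minus DMSO in WT (horizontal axis) and in IkL/L (vertical axis) for the 9 B lineage genes (red) and 40 further genes of the B cell programme (grey); filled points passed in IkL/L, and the dashed line marks equal responses. Spib lies farthest above the line (0.86 in WT, 2.97 in IkL/L), and Pou2af1 and Ikzf3 lie near it on the negative side.

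Spib and some other B lineage genes are also expressed by cells other than B cells, so markers of those cells were read beside them. For plasmacytoid dendritic cells 16 markers were measured, Spib among them. Their mean log2 level was 7.60 and 7.18 (DMSO) and 8.07 and 7.58 (GSI) on WT arrays and 6.85 and 6.68 (DMSO) and 7.34 and 7.35 (GSI) on IkL/L arrays. Under DMSO 3 of them were lower in IkL/L: Spib, Smim5 (-2.29 ± 0.28) and the chemokine receptor gene Ccr9 (-2.11 ± 0.13). None was higher, and the shares over all genes were 1.03% lower and 0.709% higher. The lineage's defining receptor Siglech was dim, between 4.11 and 4.56 on every array (4.56 and 4.45 in IkL/L DMSO). These values lay below the array medians, so a fall could hardly show. The list's median IkL/L minus WT difference was -0.33 under DMSO and -0.35 under GSI, beside 0.03 and -0.04 over all genes. Under GSI 2 markers were lower in IkL/L and none higher, beside 0.517% and 0.945% of all genes. With GSI in IkL/L, 3 of the 16 rose (Spib, Smim5 and Ccr9) and 1 fell (Klk1, -0.87 ± 0.23), beside 7.7% and 9.09% of all genes. With GSI in WT 2 rose (Ccr9 and Lair1) and none fell, beside 2.31% and 4.16% of all genes. Ccr9 is also a gene of thymocytes.

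Myeloid and dendritic markers moved with GSI in IkL/L, as did Spib, Vpreb1, Cd79b and, by its brighter probe set, Igll1. Of 21 measured, 8 rose there and none fell, beside 7.7% and 9.09% of all genes. The mean level of the list was 5.17 and 4.89 (DMSO) and 5.47 and 5.23 (GSI) on WT arrays. On IkL/L arrays it was 5.21 and 5.24 (DMSO) and 6.22 and 6.14 (GSI). The 8, named because they passed, were the lysozyme genes Lyz1 (3.09 ± 0.27) and Lyz2 (2.50 ± 0.26), S100a8 and S100a9, and the MHC class II pathway genes H2-Aa (3.69 ± 0.30), H2-Ab1, H2-Eb1 and Cd74. These 8 were also higher in IkL/L than in WT under GSI, the comparison in which the brighter Igll1 probe set passed, where 0.945% of all genes were higher. In WT, Lyz1 and S100a8 rose with GSI and none fell, beside 2.31% and 4.16% of all genes. Of the defining markers, Itgam (2.78 to 3.27) and Mpo (3.94 to 4.41) were dim on every array. So were Elane (4.30 to 4.91), Cebpa (3.91 to 4.50) and Cd14 (4.28 to 4.66). Stromal markers were read as well, and whether their signal came from the OP9 layer was not tested. Their mean level was 6.90 and 5.96 (DMSO) and 7.64 and 5.85 (GSI) on WT arrays. On IkL/L arrays it was 7.03 and 6.03 (DMSO) and 7.16 and 6.49 (GSI). In each group the array numbered 1 had the higher level. None of the 16 passed in any comparison (at most 1 at an unadjusted p below 0.05). With that level as a covariate the response in IkL/L for Cd79b passed (limma, adjusted p = 0.0014), as did that of Igll1 (0.63; adjusted p = 0.016). The part of the myeloid and dendritic markers in these results was not tested, nor was the type of cell that gave the MHC class II signal.

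The genes most like each B lineage gene were listed by Pearson's r over the 8 arrays, which share 4 group means, among 4956 genes that varied by at least 1 on the log2 scale. Closest to Spib were Fam102a (r = 0.990), Tpd52 (0.989) and Rasa4 (0.988). Fam102a was at 6.81 and 6.77 (DMSO) and 8.08 and 7.90 (GSI) on WT arrays and 4.86 and 4.76 (DMSO) and 7.25 and 7.61 (GSI) on IkL/L arrays. Closest to Pou2af1 were the Notch target Dtx1 (0.996), the methionine salvage gene Enoph1 (0.995) and Shmt1 (0.994), which encodes a serine hydroxymethyltransferase. Closest to Cd79b were Slc25a45 (0.996), Eya2 (0.994) and Spns3 (0.993), and closest to Vpreb1 were Cep162 (0.993), Sik3 (0.991) and Adipor2 (0.990). By its brighter probe set, which may bind other transcripts too, Igll1 came closest to Ncam1 (0.986), Gli1 (0.982) and the MHC class II gene H2-Aa (0.973). The other Igll1 probe set, on which the groups overlapped, was not used for this. H2-Aa was at 10.19 and 10.04 on the IkL/L GSI arrays and at 6.50 or less on the other 6. Its probe set has the suffix _x_at too, as do those used for Lyz1, Ccr9, Klk1 and Bcl11a, so the same caution holds for them.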

How the data were processed

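The deposited values are on a log2 scale and come from RMA, per the submitters' processing notes; the RMA version is not given in the sources used here. RNA had been labelled in 2 cycles, per the labels' protocols. The values were used as deposited. Control probe sets (64 of 45101), those with several gene symbols (932) and those without a listed one (9160) were left out; a gene kept its probe set with the highest mean, giving 18193 genes. Symbols came from the platform annotation.

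Groups came from the sample titles. Models were fitted in R 4.3.3 with limma 3.58.1, using a trended eBayes step, on all 8 arrays with 4 groups, 4 residual and 4.11 prior degrees of freedom, for 6 comparisons. Genes were named by rule: the 9 B lineage genes, up to 3 genes of the B cell programme per direction with a few fixed factors, check genes, marker lists, and the 3 genes most like each. The genes and lists were chosen with earlier results of these data known. In simulated data of 18193 genes, 48 of 100 genes changed by 1 and 89 of 100 changed by 2 (log2) were recovered for GSI in WT. There were 13 false calls among the genes left unchanged. For GSI in IkL/L the same counts were 41, 82 and 5, and for the interaction 16, 73 and 1. Replicate numbers were not taken to pair samples. Alternatives were another summary of probe sets, filter, scaling, block, trend or set of arrays. Plots used matplotlib 3.10.9 and pandas 2.3.3 in Python 3.11.15.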

Additional observations from a re-analysis of the deposited data

Results flagged for a closer look

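A single Ebf1 probe set, 1 of 5, moved in opposite directions in the genotypes on every array. It was at 3.79 and 3.74 (DMSO) and 4.07 and 4.25 (GSI) on WT arrays and 4.14 and 3.98 (DMSO) and 3.76 and 3.67 (GSI) on IkL/L arrays, so its genotype difference was opposite under DMSO and GSI as well. The difference between the responses was -0.74 ± 0.16 and did not pass over all probe sets (limma, adjusted p = 0.86), and on the other 4 Ebf1 probe sets it lay between -0.26 and 0.08. The dimmer Pax5 probe set was higher in IkL/L under DMSO and lower under GSI on every array, with a difference between the responses of -0.26 that did not pass either (limma, adjusted p = 0.95). Both probe sets were dim.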

How the results depend on the processing

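Of 554 values of Spib, Pou2af1, Vpreb1, Igll1 and Cd79b under alternatives, 501 kept direction and side of the threshold, 27 lost and 15 gained a call and 11 changed sign, none of these a called value. The block by replicate number, whose pairing is not given in the labels (deviations of same-numbered arrays correlated with r from -0.11 to 0.71), gave 2 genes for the genotype under DMSO in place of 1, with Cd79b added (limma, adjusted p = 0.047). With the block, Spib passed with GSI in WT (0.035), and 3 genes of the B cell programme rose there in place of 0. Counts of the 9 genes for GSI in WT, 2 in the report, were 1 with every probe set as a feature, 0 with only the arrays compared and 4 with the stromal level, and 1 to 2 without single arrays. For GSI in IkL/L they ranged from 3 to 5 without single arrays. For the interaction they were 1, in place of 0, with the GAPDH difference or the stromal level. For the genotype under DMSO they were 2 with either covariate and 1 to 2 without single arrays. For the genotype under GSI, 1 in the report, they were 0 with a mean over probe sets, with every probe set, after quantile normalization once more or with only the arrays compared, 2 with the stromal level, and 0 to 1 without single arrays. Calls over all genes moved as well. For GSI in WT, 711 of 45037 probe sets passed as features, and 1 of 18193 genes with only the arrays compared. With the stromal level 3098 of the 18193 passed there, in place of 1177. For the interaction 64 (GAPDH difference) and 56 (stromal level) passed, in place of 8. For the genotype under DMSO it was 542 with the block, in place of 316. The causes were not tested. Signs turned without single arrays for Igll1 with GSI in WT (-0.141 to 0.212), for Pou2af1 in the interaction (-0.223 to 0.0867), under DMSO (-0.0802 to 0.0677) and under GSI (-0.229 to 0.0805), and for Vpreb1 under DMSO (-0.0545 to 0.272). They also turned for Pou2af1 under DMSO after quantile normalization (0.0732) or without both WT arrays numbered 1 (0.0672), and for Vpreb1 under DMSO with the GAPDH difference (-0.0104). The covariates and the fit without both WT arrays numbered 1 were chosen after the data were seen. Pou2af1 lay below the median level and has no value in the fit above it. For the dim genes Pax5, Ebf1, Cd79a and Blnk no detection calls were used here, so signal near background limits what their differences can show.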

Other observations

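For the IkL/L minus WT difference under DMSO, none of the 40 further genes of the B cell programme passed (limma), with 6 lower and 1 higher at an unadjusted p below 0.05 and a median of 0.01 beside 0.03 over all genes. As lower, 6 passed with the GAPDH covariate, 5 with the stromal covariate and 4 with the block by replicate number. Without these changes 316 of all 18193 genes passed, 1.03% as lower, and with the block 542 passed in either direction. All genes were not counted at the unadjusted threshold, nor as lower in these fits, so the counts cannot be set against a background. The genes that follow were named after their values were seen. Blk, a Src family kinase gene of B cells, was at 8.92 and 8.14 in WT DMSO and at 6.37 and 6.58 in IkL/L DMSO, a log2 difference of -2.06 ± 0.42 (limma, adjusted p = 0.061). Plcg2 differed by -1.31 ± 0.28 (adjusted p = 0.069), Irf8 by -0.84 ± 0.18 (0.065) and Il7r, the receptor chain gene for the cytokine that early B and T cells need, by -1.35 ± 0.28 (0.062). Irf8 rose in IkL/L by 1.19 ± 0.18 (adjusted p = 0.0036) to 7.86 and 7.90, above the 7.53 and 7.47 of WT GSI, and Plcg2 rose as well (limma, adjusted p = 0.032). Blk and Il7r were at 0.58 ± 0.42 and 0.12 ± 0.28 with GSI in IkL/L and did not pass.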
